A study of Mus musculus with 38 samples.

Results

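The measurements described here are 12 segments of mouse liver, taken as 6 pairs, out of 38 segments in the series. Each pair is the PanCK+ and the IBA1+ segment of a single periportal region of interest (ROI) of a mouse on the control diet. The pairs were chosen by their labels alone: ROIs 003 and 005 are from WT mice and ROIs 026, 027, 028 and 029 from Trail Δmye mice. In Trail Δmye mice a Cre recombinase under the Lyz2 promoter, which is active in myeloid cells, deletes the floxed gene of the death ligand TRAIL. Both genotypes were on a C57BL/6 background, were 6 to 8 weeks old when the study began and were fed for 21 days, with 3 rounds of diet of 5 days each and 2 rounds of chow of 3 days each between them. The other diet of the study held 0.1% DDC, a porphyrinogenic compound that obstructs bile ducts, and 9 pairs of DDC-fed mice (18 segments, 8 WT and 10 Trail Δmye) were used for a single comparison. The labels do not tie a segment to an animal, so that segments may share a mouse, and all p-values below measure the spread between segments and are too small to stand for mice.

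PanCK is a stain for epithelial keratins, which in the liver mark cholangiocytes, the cells that line bile ducts. IBA1, the product of Aif1, is a calcium-binding protein of macrophages. In a healthy liver most macrophages are Kupffer cells, which sit in the sinusoids, clear particles and old red cells from portal blood, recycle their iron, and make the complement component C1q. Cholangiocytes form a polarised epithelium with tight junctions and a primary cilium that senses bile flow, they modify bile by transport of ions and water, and they depend on transcription factors such as SOX9. The question posed by the pairs is which transcripts separated the duct segment from the macrophage segment of the same portal field before any cholestatic injury.

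In Digital Spatial Profiling, a light mask releases the probe barcodes of all RNA under the stained area, so a segment is a small bulk sample and not a cell. Fewer cells of a type and less RNA per cell cannot be told apart in such values. Total counts ranged from 23482 to 54834 in the PanCK+ and from 26380 to 220382 in the IBA1+ segments. The IBA1+ segment was the deeper of the pair in all 6 ROIs, by 1.12 and 1.45 times in WT and by 1.82 to 5.84 times in Trail Δmye mice. No value in the count table was below 1, and 19.7 to 67.2% of genes were at 1 in a PanCK+ segment, against 0.313 to 70.3% in an IBA1+ segment. Levels are given below as Q3-normalized counts, the counts scaled so that each segment has the same 75th percentile. On this scale 1 count was worth 5.25 in all WT segments, 2.10 to 3.50 in the Trail Δmye PanCK+ segments and 0.657 to 1.75 in the Trail Δmye IBA1+ segments, so low values of WT and Trail Δmye segments are not on equal terms. The part of depth in the counts of genes called was not tested apart from the thinning described below.

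With the ROI as a block, 148 of 10547 genes had higher levels in PanCK+ segments (1.40%) and 394 had lower levels (3.74%) at a Benjamini-Hochberg adjusted p under 0.05 by edgeR's quasi-likelihood test, with 1416 genes at an unadjusted p under 0.05. These are the called genes below, and every count of called list members is to be read against these shares of 1.40% and 3.74%. In 76 of the 148 and 270 of the 394 genes, all 6 ROIs lay on the same side. The split between higher and lower moved with the scaling. It was 276 higher and 217 lower with TMM factors, 348 higher and 198 lower with total counts, and 119 higher and 187 lower with DESeq2. The median log2 ratio over all genes was −0.11 as reported, 0.16 with TMM factors and 0.24 with total counts, so a small log2 ratio has no settled direction and is read here against that shift. Thinning every segment to the smallest total left 73 higher and 111 lower. Leaving out ROI 029, 028 or 027 lowered the number of called genes the most, to 346, 350 and 355.

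**Figure D1:**
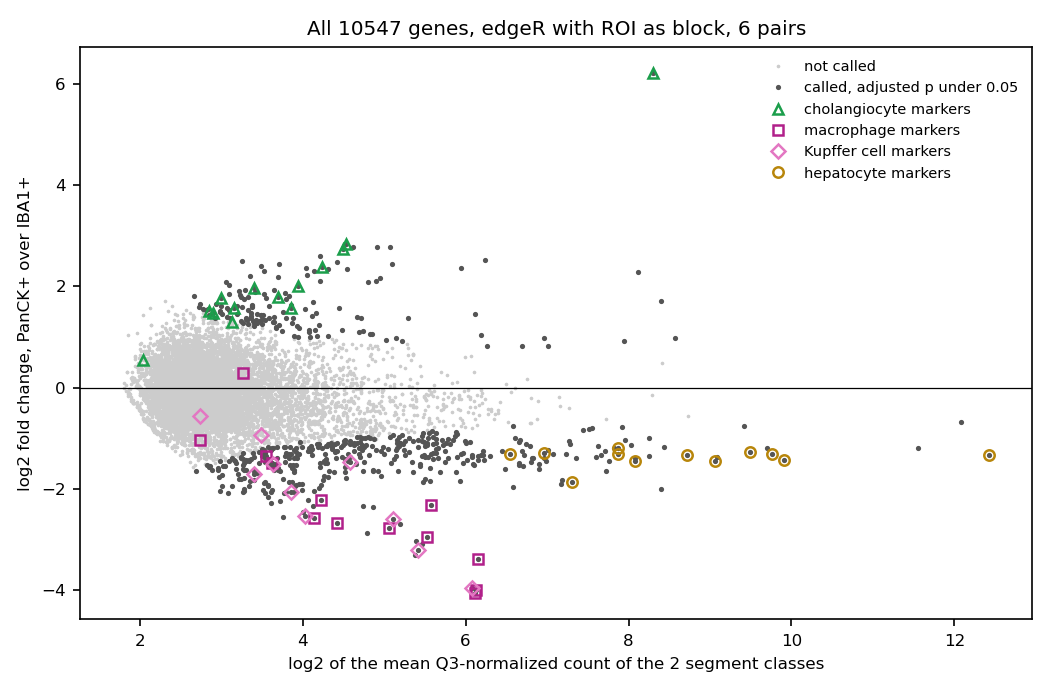
Each point is a gene, with the log2 of its mean Q3-normalized count on the x axis and its log2 ratio of PanCK+ over IBA1+ segments on the y axis, in the 6 control-diet pairs, called genes dark and 4 marker lists outlined. Spp1 stands alone at the top with a log2 ratio of 6.22, C1qc, C1qb and Clec4f lie lowest (−4.06, −4.00 and −3.96), and the 12 hepatocyte markers form a flat band between −1.88 and −1.19.

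The keratins and Aif1 encode what the stains recognise, so their values check the segments and are no findings. Krt19, a keratin of bile ducts, was at a lowest, median and highest Q3-normalized count of 7.88, 21.0 and 55.1 in PanCK+ and 1.31, 5.25 and 11.8 in IBA1+ segments. All 6 ROIs had more in PanCK+ (log2 ratio 2.01, SE 0.34, adjusted p 3.52e-05), although the ranges overlapped. Krt8 (2.17), Krt18 (1.40) and Krt7 (1.48) were also called higher, and Krt23 (0.72, adjusted p 0.738) was not. The call of Krt7 (adjusted p 0.0448) was lost without ROI 005 (0.0754), 026 (0.0904), 027 (0.12), 028 (0.412) or 029 (0.0579). Aif1 was at 2.63, 5.25 and 14.7 in PanCK+ and 5.25, 20.7 and 27.6 in IBA1+ segments. In 4 of 6 ROIs PanCK+ held less (log2 ratio −1.49, SE 0.39, adjusted p 0.0105), and the call was lost without ROI 026 (0.0714), 027 (0.138) or 028 (0.124) and with TMM factors (0.0685).

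Spp1, which encodes the secreted matrix protein osteopontin, differed more than any other gene. Its Q3-normalized count in the PanCK+ segments of ROIs 003, 005, 026, 027, 028 and 029 was 819, 809, 480, 441, 554 and 653. In the IBA1+ segments of the same ROIs it was 5.25, 5.25, 8.75, 3.94, 7.22 and 11.8. The ranges were far apart, and the IBA1+ values came from 1 to 11 counts, with both WT segments at 1. The log2 ratio was 6.22 (SE 0.28, adjusted p 6.45e-24), a 74.6-fold difference. In WT pairs the level was at least 51.7-fold higher in PanCK+ segments, taking 3 counts per segment as the floor for IBA1+, and in Trail Δmye pairs the log2 ratio was 6.07.

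Windows of 250 bases before a transcript start of Spp1, Epcam, C1qb and C1qc are shown because these genes lead the list in each direction. They are the RefSeq windows of build GRCm38.p6, written 5′ to 3′ along the gene. Spp1 lies at chr5:104435111-104441053 and its window at chr5:104434861-104435110 on the plus strand. The Epcam window is chr17:87635729-87635978 on the plus strand. C1qb, C1qc and C1qa lie next to each other, at chr4:136880126-136886200, chr4:136889801-136892936 and chr4:136895916-136898844, and the windows of C1qb (chr4:136886201-136886450) and C1qc (chr4:136892915-136893164) are on the minus strand. The C1qc window overlaps the end of the gene interval given. Capitals mark matches, on either strand, to the motifs spelled out after the sequences.
Spp1: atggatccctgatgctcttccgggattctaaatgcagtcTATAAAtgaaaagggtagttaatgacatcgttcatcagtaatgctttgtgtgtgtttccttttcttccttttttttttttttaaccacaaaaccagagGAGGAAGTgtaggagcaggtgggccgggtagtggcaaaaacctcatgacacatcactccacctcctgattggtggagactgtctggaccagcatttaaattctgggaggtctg
Epcam: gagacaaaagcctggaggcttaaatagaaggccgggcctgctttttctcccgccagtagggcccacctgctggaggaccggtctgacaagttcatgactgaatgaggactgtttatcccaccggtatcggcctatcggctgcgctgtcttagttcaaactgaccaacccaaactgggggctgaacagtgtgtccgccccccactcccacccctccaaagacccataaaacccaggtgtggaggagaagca
C1qb: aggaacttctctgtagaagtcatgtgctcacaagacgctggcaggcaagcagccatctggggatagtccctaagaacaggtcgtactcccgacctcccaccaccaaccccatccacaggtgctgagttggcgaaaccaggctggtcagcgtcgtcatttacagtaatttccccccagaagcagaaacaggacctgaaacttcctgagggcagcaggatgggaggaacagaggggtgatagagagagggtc
C1qc: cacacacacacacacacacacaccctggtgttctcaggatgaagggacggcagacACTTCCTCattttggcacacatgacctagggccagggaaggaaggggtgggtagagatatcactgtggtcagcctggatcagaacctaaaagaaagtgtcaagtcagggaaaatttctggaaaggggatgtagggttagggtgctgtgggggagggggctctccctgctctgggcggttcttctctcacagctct
Of the 4 motifs searched, 3 are given here, that of the myeloid ETS factor PU.1 (GAGGAAGT), that of AP-1 (TGANTCA) and the TATA box (TATAAA). None of them overlapped another in these windows. The Spp1 window shown held the TATA box letters, beginning 211 bases before the start site, and the PU.1 letters, beginning 113 bases before it. A second Spp1 window in the table (chr5:104435942-104436191, plus strand) held no match. The C1qc window held the PU.1 letters on the opposite strand, beginning 195 bases before the start site, and the windows of Epcam and C1qb held no match. Of all 8428 measured genes with such a window, 2.88% held the PU.1 motif, 6.09% the AP-1 motif and 8.95% the TATA box. A comparison of called genes with all genes is void, because only 72.3% of the genes called higher and 76.4% of those called lower have a window in the table used.

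Of 14 cholangiocyte markers, 11 were called higher in PanCK+ segments and none lower, against 1.40% of all genes called higher. The median log2 ratio was 1.79, against −0.11 over all genes. Among the 11 were the keratins Krt7 and Krt19, which check the stain and are no findings. The summed Q3-normalized count of the 14 markers was 665 to 1140 in PanCK+ and 56.5 to 78.8 in IBA1+ segments. Most of the PanCK+ sum came from Spp1. Epcam, an epithelial adhesion molecule, was at 26.3, 39.1 and 57.8 (lowest, median and highest) in PanCK+ and 1.31, 5.25 and 10.5 in IBA1+ segments. The ranges did not overlap, and the log2 ratio was 2.84 (SE 0.32, adjusted p 5.29e-09). Cd24a, a glycosylated surface protein of progenitor and duct cells, had a log2 ratio of 2.39 and was higher in 5 of 6 ROIs. Prom1 (1.57) and the tetraspanin Tspan8 (1.78) were called higher with overlapping ranges. Among the 3 markers not called was the claudin Cldn7 (1.30, adjusted p 0.0719).

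The 12 genes with the highest log2 ratios and the same side in all 6 ROIs held several with no place on the marker list. Fgfr3, a fibroblast growth factor receptor, was at 24.5, 36.8 and 68.3 in PanCK+ and 2.63, 5.25 and 10.5 in IBA1+ segments (log2 ratio 2.79). Sorbs2, an actin-binding adaptor, had a log2 ratio of 2.78, and Atp1b1, the β subunit of the sodium pump, one of 2.77. Dsg2, a cadherin of desmosomes, reached 2.44. Glis3, a zinc-finger factor in which mutations cause cystic and pancreatic disease, reached 2.51 from only 2 to 8 counts in PanCK+ segments. Pdzk1ip1, a small membrane protein of transporting epithelia, reached 2.61 and Prr15l 2.45. In each of these 7 genes the ranges of the 2 segment classes did not overlap. They were picked for high ratios on the same side in all 6 ROIs, which favours such separation, so it adds no support.

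Among transcription factors of ducts, 5 of 12 were called higher, against 1.40% of all genes, and none lower (median log2 ratio 1.03). Sox9, which directs biliary fate, was at 10.5, 18.4 and 31.5 in PanCK+ and 1.31, 5.25 and 8.75 in IBA1+ segments. The ranges did not overlap (log2 ratio 1.80, SE 0.34, adjusted p 0.000322). Its call was lost after thinning to the smallest total (0.0863). The epithelial ETS factor Ehf (2.31), Sox4 (2.10), Onecut2 (1.28) and Onecut1 (1.10) were the other 4. Onecut1 lost its call without ROI 027 (adjusted p 0.0997) or 029 (0.183) and after thinning. Elf3 (0.61), Grhl2 (0.95) and Foxa2 (0.11) did not pass the test, each with at most 3 counts in a PanCK+ segment.

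Of 16 junction proteins, 3 were called higher, against 1.40% of all genes, and none lower. Cdh1, the cadherin of epithelial adherens junctions, was at 35.0, 42.0 and 84.0 in PanCK+ and 5.25, 9.63 and 26.3 in IBA1+ segments, without overlap (log2 ratio 2.10, adjusted p 9.14e-07). F11r (1.48) and occludin (Ocln, 1.85) of tight junctions followed. Ocln lost its call without ROI 028 (adjusted p 0.164), and both F11r and Ocln lost theirs after thinning. Cldn3 was at 14.0, 24.9 and 63.0 against 5.25, 12.9 and 15.8 and missed the threshold (0.96, 0.0552), and it passed with TMM factors (0.0116). The scaffold proteins Tjp1 (0.60) and Tjp3 (0.32) did not pass. Of 6 measured genes of the primary cilium, 3 were called higher, against 1.40% of all genes. Pkhd1, the gene of autosomal recessive polycystic disease, was at 14.0, 35.2 and 78.8 against 1.75, 5.25 and 7.88, without overlap (log2 ratio 2.73, adjusted p 2.82e-08). The RNA-binding protein gene Bicc1 (1.58) and the cation channel gene Pkd2 (1.37) were the others. Pkd2 lost its call without ROI 028 (0.0729) or 029 (0.317), and Pkd1 (0.05) did not pass.

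Of 10 measured genes of ductal ion, water and bile acid transport, none was called higher and 1 was called lower. The shares over all genes were 1.40% and 3.74%. The gene called lower was the water channel Aqp1, which capillary endothelium also expresses, at 2.63, 6.65 and 26.3 in PanCK+ and 5.25, 21.7 and 30.2 in IBA1+ segments. It was lower in 4 of 6 ROIs (log2 ratio −1.54, adjusted p 0.0074), with 0.79 in WT and −2.23 in Trail Δmye pairs. The call was lost without ROI 027 (0.0816), 028 (0.135) or 029 (0.0879) and with total counts (0.0563). The peptide transporter Slc15a2 (1.20, adjusted p 0.155) and the glucose transporter Slc5a1 (1.20, 0.177) were higher in 5 of 6 ROIs and did not pass. With total counts as the scaling Slc15a2 (0.0295) and Slc5a1 (0.0412) did, so that 2 genes of the list were called higher and 0 lower, and with TMM factors 1 was called higher and 1 lower. The secretin receptor Sctr (−0.22) and the apical bile acid transporter Slc10a2 (0.57) had at most 3 counts in any PanCK+ segment, and no difference was detectable at this depth.

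Of 8 measured mucosal defence proteins, 4 were called higher and 1 lower, against 1.40% and 3.74% of all genes. Clu, the secreted chaperone clusterin, was the most abundant of the duct genes after Spp1. It was at 234, 440 and 720 in PanCK+ and 63.0, 74.8 and 205 in IBA1+ segments. The ranges did not overlap (log2 ratio 2.29, SE 0.21, adjusted p 2.1e-11). The trefoil factor Tff2 (2.20), the mucin Muc1 (1.98) and the matrix protease Mmp7 (1.38) were called higher from at most 14 counts. Pigr, which carries IgA across epithelia and which hepatocytes of mice also express, was lower in 5 of 6 ROIs at 13.1, 32.0 and 63.0 against 57.8, 72.5 and 137 (log2 ratio −1.37, adjusted p 0.000721). Of 11 measured genes of basement membrane and its receptors, the integrins Itgb6 (1.56) and Itga3 (1.37) were called higher, against 1.40% of all genes. Itga3 lost its call without ROI 005 (0.061), 026 (0.103), 028 (0.0684) or 029 (0.629), and Itgb6 without ROI 027 (0.218), 028 (0.102) or 029 (0.219). None of 10 measured Notch and YAP pathway genes was called, with Notch2 at 0.79 and Jag1 at 0.82, each from at most 8 counts. A list this short can hold none at the shares over all genes, so this lack is not read as a result.

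**Figure D2:**
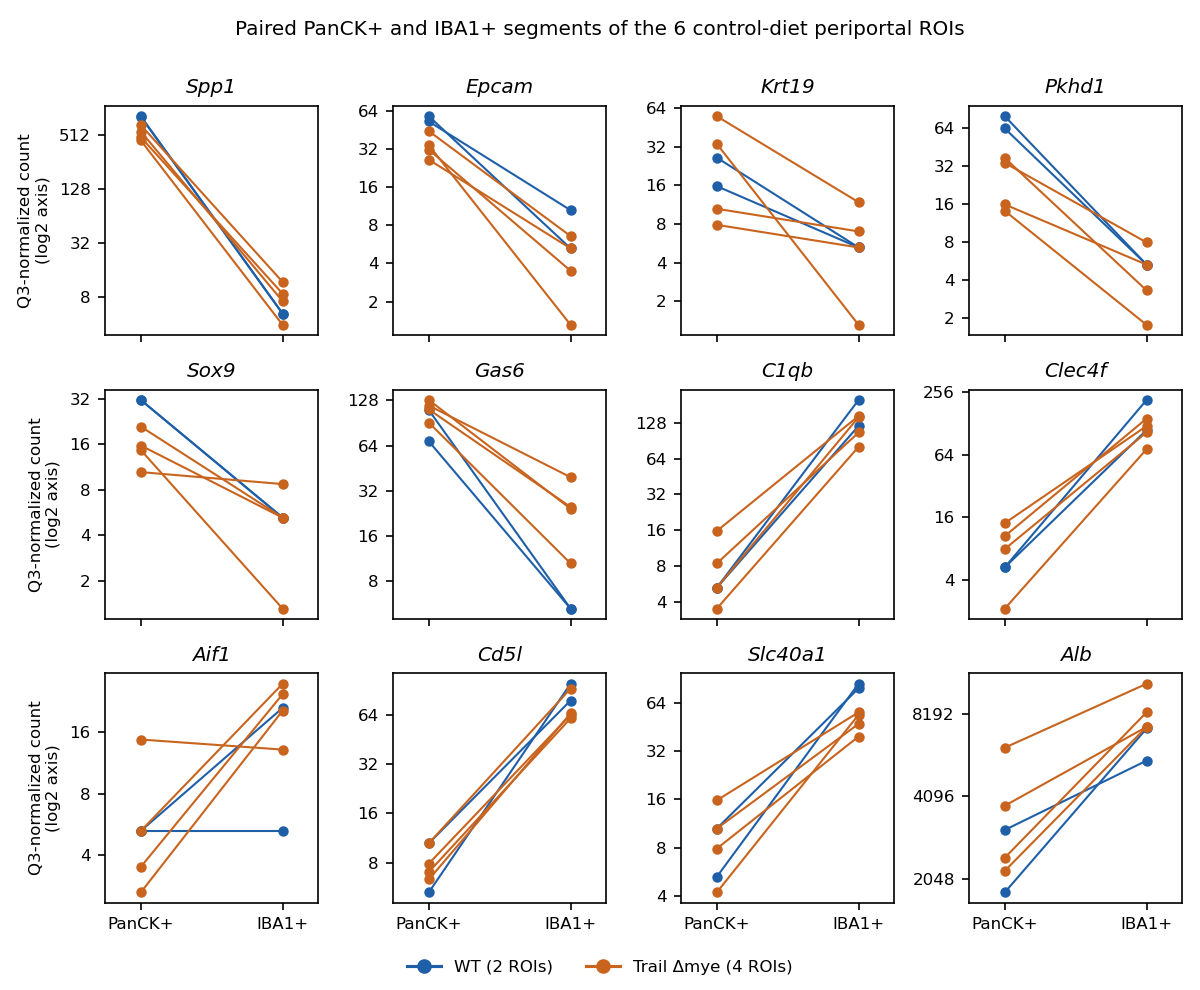
Each panel is a gene, and each line joins the Q3-normalized counts (log2 axis) of the PanCK+ and the IBA1+ segment of the same ROI, coloured by genotype. All 6 lines fall from PanCK+ to IBA1+ for Spp1, Epcam, Pkhd1, Sox9 and Gas6, and all 6 climb for C1qb, Clec4f, Cd5l, Slc40a1 and Alb.

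In the other direction, 11 of 13 macrophage markers were called lower in PanCK+ segments and none higher, against 3.74% of all genes called lower. The median log2 ratio was −2.59. Among the 11 was Aif1, which encodes the stain target and is no finding. The summed Q3-normalized count of the 13 markers was 56.0 to 141 in PanCK+ and 584 to 1108 in IBA1+ segments, with no overlap. C1qb, a chain of the complement component C1q, had Q3-normalized counts from 3.50 to 15.8 (median 5.25) in PanCK+ segments and from 80.5 to 200 (median 132) in IBA1+ segments. In counts, ROIs 003, 005 and 026 held 1 in the PanCK+ segment, and the most was 6, against 23 to 223 in the IBA1+ segments. The log2 ratio was −4.00 (SE 0.35, adjusted p 2.8e-12). The other 2 chains followed, C1qc with −4.06 and C1qa with −3.39, neither with overlap. The colony-stimulating factor receptor Csf1r (−2.31), the pore-forming Mpeg1 (−2.68), Cd68 (−2.59) and Adgre1, which encodes F4/80 (−2.23), were called lower with no overlap. The 2 markers not called were Cd14 (0.29, adjusted p 0.871), which hepatocytes can also express, and Lyz2 (−1.04, 0.413), whose promoter drives the Cre of the Trail Δmye mice. Lyz2 was at 1 or 2 counts in every PanCK+ segment and 1 to 9 in the IBA1+ segments.

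Of 10 Kupffer cell markers, 8 were called lower in PanCK+ segments, against 3.74% of all genes. The sum of the 10 markers was 42.0 to 97.2 against 313 to 646. Clec4f, a C-type lectin found on Kupffer cells, was at 2.10, 6.57 and 14.0 in PanCK+ and 72.2, 116 and 215 in IBA1+ segments. The ranges did not overlap (log2 ratio −3.96, SE 0.35, adjusted p 4.72e-12). Cd5l, a secreted scavenger-type protein, was at 5.25, 7.44 and 10.5 against 61.3, 72.2 and 99.8 (−3.21). Vsig4, a complement receptor (−2.07), Folr2, a folate receptor (−2.54), and Timd4, a phosphatidylserine receptor (−1.71), were called lower without overlap. Marco (−0.94, adjusted p 0.24) and Id3 (−0.56, 0.792) were not called. Of 8 measured markers of recruited macrophages, none was called lower. A list this short can hold none, as 3.74% of all genes were called lower. The tetraspanin Cd9, which epithelia also express, was called higher (1.41, adjusted p 0.00159). Lgals3 had a log2 ratio of −1.18 (0.0942) and was called lower with limma or without the ROI block. Trem2 (−0.27) and Gpnmb (−0.82) were at no more than 8 counts anywhere. The summed level of the 8 markers was 42.0 to 75.6 in PanCK+ and 44.6 to 82.1 in IBA1+ segments. It came from 11 to 36 and from 10 to 125 counts. Neutrophil (5 measured) and dendritic cell markers (4 measured) had no called gene. Their sums were 18.4 to 35.0 against 25.6 to 52.5 and 15.8 to 21.0 against 13.1 to 28.2. In counts these were 6 to 14 against 5 to 39 and 4 to 9 against 4 to 43. The negative probe alone was at 2.89 to 6.02 on this scale, so these sums lie close to the floor. Lists this short can hold no called gene, so this lack is not read as a result.

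**Figure D3:**
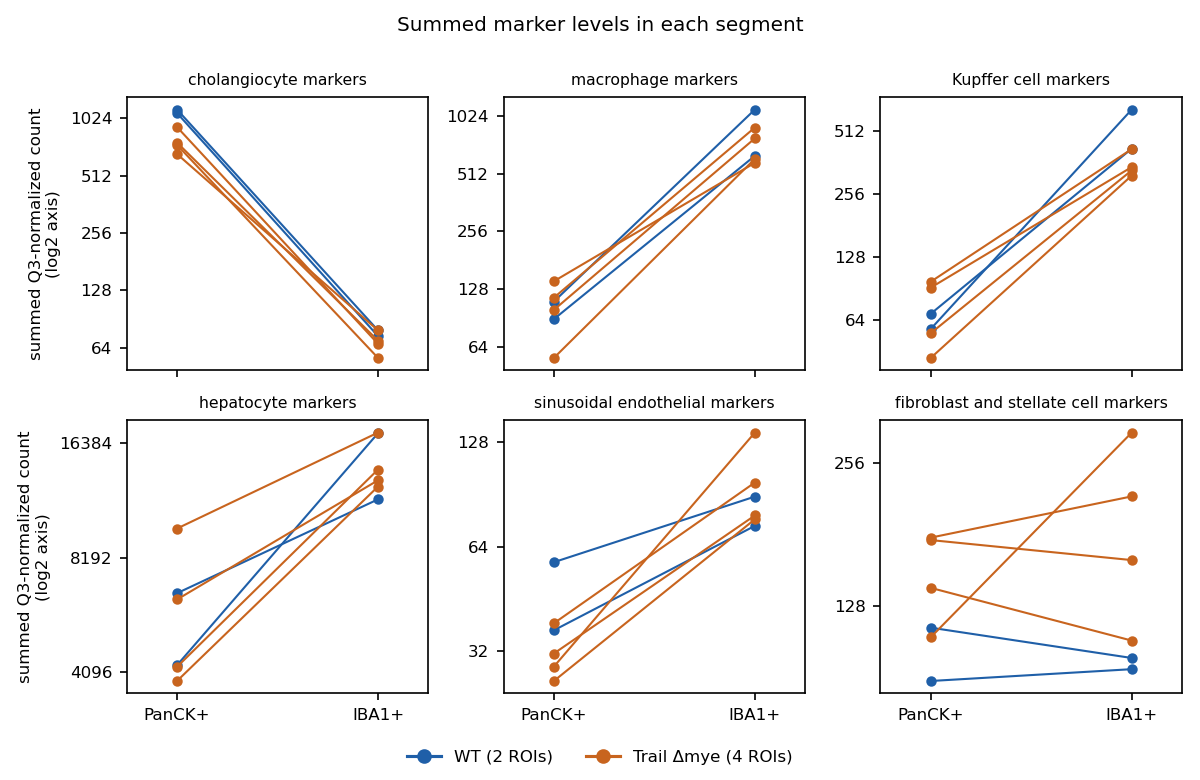
Summed Q3-normalized counts (log2 axis) of 6 marker lists in the PanCK+ and IBA1+ segment of each ROI, joined by a line and coloured by genotype. The cholangiocyte sum is 665 to 1140 in PanCK+ against 56.5 to 78.8 in IBA1+ segments, the macrophage sum runs the other way, and the hepatocyte sum is higher in the IBA1+ segment of every ROI.

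Lists of macrophage function share members with the marker lists, among them C1qa, C1qb, C1qc, Fcer1g, Vsig4, Ctss and Slc40a1. Their counts of calls are therefore not separate from those of the markers. Of 14 C1q, Fc and complement receptor genes, 9 were called lower in PanCK+ segments and none higher, against 3.74% of all genes called lower. Fcgr3 (−2.06) and Fcgr4 (−2.06), activating receptors for IgG, did not overlap between the classes, and Fcgr2b (−2.17), the inhibitory receptor, was lower in 5 of 6 ROIs. Itgb2 (−1.52) passed only just (adjusted p 0.0491). Cfp, which encodes properdin, a stabiliser of the alternative complement pathway, was at 2.63, 7.88 and 13.1 against 30.2, 59.1 and 126 (−2.70). Fcna, a ficolin of the lectin pathway, was at 2.63, 9.19 and 15.8 against 43.3, 68.3 and 110 (−3.03). Tyrobp, a signalling adaptor of myeloid receptors, had a log2 ratio of −2.78. Sdc3, a heparan sulfate proteoglycan, had one of −3.08 and no overlap.

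Of 18 lysosomal genes, 11 were called lower in PanCK+ segments, against 3.74% of all genes, and none was called higher. All 18 had a negative log2 ratio. Their median was −1.39, close to the −1.33 of the hepatocyte markers below, and the part of hepatocyte RNA in it was not tested. Lgmn, an asparaginyl endopeptidase, was at 3.50, 5.25 and 15.8 in PanCK+ and 52.5, 74.3 and 110 in IBA1+ segments (−3.31, adjusted p 1.82e-09). Ctss, the protease that trims the invariant chain, was at 10.5 in the lowest, median and highest PanCK+ segment alike and at 56.0, 82.7 and 109 in IBA1+ segments (−2.95). Neither overlapped. Ctsb (−1.87), Grn (−1.80) and Psap (−1.45) were called lower, Psap at 26.3, 71.8 and 86.1 against 126, 176 and 268. Laptm5, a lysosomal membrane protein of blood cells, had −2.87. Of 7 class II antigen presentation genes, Cd74 (−1.91), H2-Ab1 (−1.85), H2-Aa (−1.67) and H2-Eb1 (−1.67) were called lower and none higher. Cd74, the invariant chain, varied widely within each class, at 5.25, 47.7 and 124 in PanCK+ and 87.5, 209 and 435 in IBA1+ segments, so that the ranges overlapped while all 6 ROIs lay on 1 side. H2-Eb1 lost its call without ROI 027 (0.166) or 028 (0.0903).

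Of 12 measured scavenger and efferocytosis genes, 7 were called lower in PanCK+ segments and 1 higher, against 3.74% and 1.40% of all genes. The number called lower was 5 with TMM factors, 4 with total counts, 1 with DESeq2 and 0 after thinning, and Mertk (0.0728) and Mrc1 (0.0663) were among those not called with DESeq2. The gene called higher was Gas6, the ligand that bridges phosphatidylserine on dying cells to the TAM receptors. It was at 68.3, 111 and 129 in PanCK+ and 5.25, 17.4 and 39.4 in IBA1+ segments, with no overlap (log2 ratio 2.36, SE 0.27, adjusted p 8.32e-09). Its receptors Axl (−1.76, adjusted p 0.000824) and Mertk (−1.63, 0.00237) were lower in the PanCK+ segment of all 6 ROIs, Axl at 5.25, 6.83 and 15.8 against 15.8, 28.8 and 52.5. Pros1, the other TAM ligand on the list, had a log2 ratio of −0.03 (0.994). Among the 12 top genes, Mfge8, another bridge to phosphatidylserine that acts through integrins, was at 24.5, 39.4 and 47.3 in PanCK+ against 1.75, 5.58 and 9.19 (2.48), and Anxa5, a phosphatidylserine-binding protein, at 84.0, 143 and 168 against 10.5, 23.0 and 28.9 (2.53). Neither overlapped. The mannose receptor Mrc1 (−1.92), the scavenger receptor Msr1 (−1.49) and the endocytic receptor Lrp1 (−1.45) were called lower. Cd36 (−0.98, 0.215) was not.

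Of 11 iron handling genes, 9 were called lower in PanCK+ segments, against 3.74% of all genes. The median log2 ratio was −1.40, close to the −1.33 of the hepatocyte markers below. Slc40a1, the iron exporter ferroportin, was at 4.20, 9.19 and 15.8 in PanCK+ and 39.4, 54.8 and 84.0 in IBA1+ segments (log2 ratio −2.59, SE 0.35, adjusted p 2.99e-07). Hmox1, which opens heme, was at 2.63, 5.25 and 8.40 against 21.0, 21.7 and 24.9 (−2.08). Neither overlapped. The ferritin light chain Ftl1 differed more (−1.66) than the heavy chain Fth1 (−0.79), and the metal transporter Slc11a1 had −1.81. Hamp (−1.40), Trf (−1.46), Hpx (−1.34) and Hp (−1.32), the other 4, encode hepcidin and plasma proteins made by hepatocytes. The ferroxidase gene Cp was the 1 exception in direction, with more in PanCK+ in 6 of 6 ROIs, at 44.6, 72.5 and 121 against 21.0, 49.0 and 63.0, and it did not pass the test (0.60, adjusted p 0.236). With TMM factors, total counts or DESeq2, 1 iron handling gene was called higher and 8 lower. Of 10 myeloid transcription factors, 3 were called lower, among them Maf (−1.87) and Nr1h3 (−1.48), which encodes LXRα. Nr1h3 lost its call without ROI 027 (0.0856) or 029 (0.119). Spi1, which encodes PU.1, was at 2.63, 5.25 and 14.7 against 5.25, 9.85 and 15.8 (−0.58, 0.686).

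**Figure D4:**
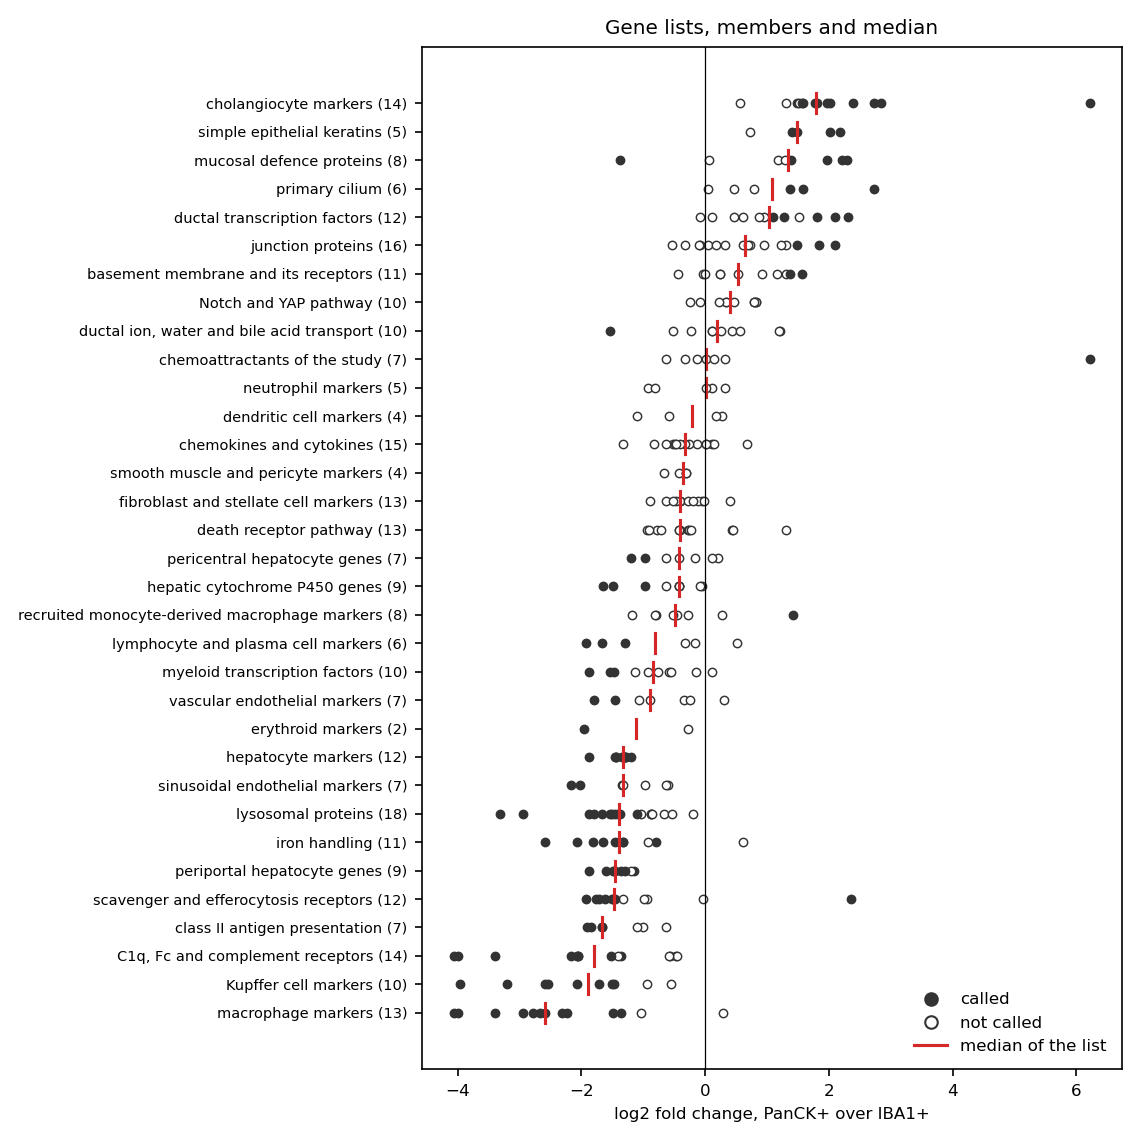
Log2 ratios of PanCK+ over IBA1+ segments for every measured member of each gene list in the 6 pairs, with called genes filled and a red bar at the median of the list. The median is highest for cholangiocyte markers (1.79) and lowest for macrophage markers (−2.59), and the hepatocyte markers crowd around −1.33.

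Hepatocyte transcripts were present in both classes and were higher in IBA1+ segments. All 12 hepatocyte markers were called lower in PanCK+ segments, against 3.74% of all genes, and with TMM factors, total counts or DESeq2 all 12 were called lower too. Alb was at 1833, 2772 and 6166 in PanCK+ and 5530, 7340 and 10537 in IBA1+ segments. All 6 ROIs lay on 1 side while the ranges overlapped (log2 ratio −1.34, SE 0.12, adjusted p 2.1e-11). Apoa1, an apolipoprotein of high-density lipoprotein, was at 273, 520 and 893 against 952, 1186 and 2516, without overlap (−1.44). Fabp1, a fatty acid carrier, was at 186, 262 and 431 against 638, 746 and 1003 (−1.45). The 12 log2 ratios spanned only −1.88 to −1.19, and the list made up 3.35 to 7.95% of all counts in PanCK+ and 8.41 to 12.3% in IBA1+ segments. The part of hepatocyte RNA in the values of other genes was not tested. Of 9 genes of periportal hepatocytes, 8 were called lower, among them the urea cycle genes Ass1 (−1.88) and Arg1 (−1.61) and the gluconeogenic Pck1 (−1.37). Of 7 measured genes of pericentral hepatocytes, only Rgn (−1.19) and Glul (−0.97), which encodes glutamine synthetase, were called lower, against 3.74% of all genes. Glul lost its call without ROI 003 (0.0549), 026 (0.0601), 027 (0.179), 028 (0.0884) or 029 (0.0734), and Rgn without ROI 027 (0.0902). Of 9 measured cytochrome P450 genes, Cyp2f2 (−1.50), Cyp27a1 (−1.65) and Cyp2c29 (−0.97) were called lower, against 3.74% of all genes. Cyp2c29 lost its call without any 1 of the 6 ROIs (adjusted p 0.0578 to 0.2). Cyp27a1 lost it without ROI 028 (0.095) or 029 (0.0585).

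Of 7 measured sinusoidal markers, Dnase1l3 (−2.03, adjusted p 0.00014), a secreted DNase, and Fcgr2b were called lower in PanCK+ segments, against 3.74% of all genes. The list's sum was 26.3 to 57.8 in PanCK+ against 73.5 to 137 in IBA1+ segments. Of 7 measured vascular markers, Cdh5, the cadherin of endothelial junctions (−1.80), and Eng (−1.46) were called lower, against 3.74% of all genes. The vascular sums were 26.3 to 63.0 against 52.5 to 95.9. In ROI 005 the vascular sum was higher in the PanCK+ segment, 63.0 against 52.5. With DESeq2 0 vascular markers were called (Cdh5 0.0521, Eng 0.137). Cdh5 lost its call without ROI 028 (0.0543), and Eng without ROI 028 (0.186) or 029 (0.0829) and with TMM factors (0.058). Fibroblast and stellate cell markers had no called gene among 13, with Col1a1 at −0.41, Col3a1 at −0.05 and Dcn at −0.40 and sums of 89.3 to 179 against 94.5 to 297. None of 4 measured smooth muscle markers was called (sums 21.0 to 48.3 against 21.0 to 57.8, from 6 to 23 against 4 to 68 counts). Lists as short as these can hold none at the shares over all genes, so neither lack of calls is read as a result.

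A few calls rested on 1 ROI. Of 6 measured lymphocyte and plasma cell markers, Jchain (−1.93), Igha (−1.67) and Igkc (−1.30), which encode the joining chain and the constant regions of IgA and the κ chain, were called lower in PanCK+ segments. The IBA1+ segment of ROI 029 held 87, 359 and 307 counts of these, and the list's summed level was 21.0 to 999 over the IBA1+ segments against 28.0 to 242 over the PanCK+ segments. Without ROI 029 the log2 ratios were −0.17 (adjusted p 0.978), 0.21 (0.977) and −0.17 (0.965). Igkc also lost its call without ROI 026 (0.0742) or 027 (0.227). Of 2 measured erythroid markers 1 was called lower. The list's sum was 507 in the IBA1+ segment of ROI 028 and 415 in that of ROI 005, against 11.8 to 17.5 in the other 4 IBA1+ segments, and the call was lost without ROI 028.

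The lists of chemokines, cytokines and death receptors held no called gene, against 1.40% of all genes called higher and 3.74% lower. Lists this short can hold none at such shares, so a lack of calls is not read as a result. None of 15 measured chemokine and cytokine genes was called. Cxcl12 was at 3.50, 22.3 and 33.6 in PanCK+ and 26.3, 38.5 and 52.5 in IBA1+ segments and was lower in all 6 ROIs (log2 ratio −0.82, adjusted p 0.124). Cxcl16 (0.68, 0.285) passed the test only with TMM factors (0.0465) or total counts (0.0224) as another scaling. The chemoattractants that the study follows were chosen on this series, so their counts are not independent evidence. Of the 7, only Spp1 was called. Cxcl1 (0.01), Cxcl5 (0.14), Cx3cl1 (−0.33), Ccl2 (−0.13) and S100a8 (0.32) had between 1 and 10 counts in every segment, and Tnf (−0.63) was at 1 count in all 6 PanCK+ segments. None of 13 measured death receptor pathway genes was called. Fas had a log2 ratio of 1.31 from at most 6 counts (adjusted p 0.174) and passed with total counts (0.042), Ripk1 one of −0.90 (0.315) and Mcl1, at up to 38 counts, one of 0.45 (0.634).

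The pairs were then separated by genotype. In the 2 WT pairs 31 genes passed (0.294% of all genes), 7 with higher and 24 with lower PanCK+ levels, and in the 4 Trail Δmye pairs 397 (3.76%), 116 higher and 281 lower. With total counts the splits were 32 and 28 in WT and 266 and 158 in Trail Δmye pairs, and with TMM factors the Trail Δmye split was 240 and 142. Of the 31 genes called in WT, 30 were also called in Trail Δmye pairs, all 30 in the same direction. The log2 ratio in WT and in Trail Δmye pairs was 2.77 and 2.86 for Epcam, and 3.12 and 2.40 for Anxa5. C1qb and Clec4f were at 1 count in both WT PanCK+ segments, so their levels were at least 10.2-fold and 10.3-fold lower there by the floor of 3 counts per segment, and their log2 ratios in Trail Δmye pairs were −3.80 and −3.72. The difference of the ratio between genotypes passed for 0 of 10547 genes (0%), with 101 genes at an unadjusted p under 0.05. It also passed for 0 genes in DESeq2 (27 unadjusted), with limma (446) and with TMM factors (154). The lower number of calls in WT comes with 2 pairs and a 75th percentile of 2 counts in each WT segment, against 3 to 5 in Trail Δmye PanCK+ and 6 to 16 in Trail Δmye IBA1+ segments, so these zeros do not show that the genotypes act alike. Both genotypes were fitted with a shared spread, and without ROI 029 the counts fell to 1 in WT and 80 in Trail Δmye pairs. Without ROI 026, 027 or 028 they were 4, 6 and 7 in WT and 179, 116 and 145 in Trail Δmye pairs, and without ROI 005 the WT count was 11.

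The control-diet ratios were last set against those of the 9 pairs from DDC-fed mice, whose total counts were 46675 to 836971 in PanCK+ and 20319 to 568720 in IBA1+ segments. The ratio differed between the diets for 47 genes (0.446%), 40 of them with a higher and 7 with a lower PanCK+ to IBA1+ ratio under DDC, and 566 genes had an unadjusted p under 0.05. With total counts it was 29 genes, 8 higher and 21 lower, so this split turned with the scaling. Without ROI 005, which leaves 1 WT control pair, the count was 5, and without DDC ROI 009 it was 97. It was also lower without ROI 027 (18) or without DDC ROI 007 (13), 011 (24), 013 (20), 032 (15), 034 (15) or 035 (21).

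Spp1 and Gas6 were called under every alternative. Spp1 in IBA1+ segments was at 3.94, 6.24 and 11.8 on the control diet and at 50.1, 183 and 320 under DDC. In PanCK+ segments it was at 441, 604 and 819 on the control diet and 344, 1318 and 1878 under DDC. The IBA1+ ranges of the 2 diets did not overlap, and the log2 ratio of PanCK+ over IBA1+ went from 6.67 to 2.74 in the joint fit (difference −3.93, SE 0.41, adjusted p 3.01e-10). Gas6 in IBA1+ segments was at 5.25, 17.4 and 39.4 on the control diet and at 36.8, 80.3 and 114 under DDC, while the PanCK+ segments were at 68.3, 111 and 129 and at 50.9, 82.4 and 124. Its log2 ratio of 3.13 on the control diet was 0.04 under DDC (difference −3.09, adjusted p 1.18e-05). Spp1 and Gas6 were at 1 count in the WT control IBA1+ segments, so their control ratios rest in part on this floor. The fit of the control-diet segments alone gave 6.22 for Spp1 and 2.36 for Gas6. The cause of this gap between the fits, and the part of the floor in the diet differences, was not tested.

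Clec4f in IBA1+ segments was at 72.2, 116 and 215 on the control diet and at 3.94, 9.70 and 26.3 under DDC, without overlap, and PanCK+ segments stayed between 2.10 and 14.0 on either diet. The log2 ratio was −4.33 on the control diet and −0.96 under DDC (difference 3.37, SE 0.57, adjusted p 0.000209). This call was lost after thinning every segment to the smallest total (0.151). Clec4f was at 1 count in the WT control PanCK+ segments, so its control ratio rests in part on this floor. The fit of the control-diet segments alone gave −3.96 for Clec4f. Slc40a1 in IBA1+ segments was at 39.4, 54.8 and 84.0 against 5.25, 15.4 and 28.5 under DDC (difference of the ratio 2.41, 0.00675). It lost its call without ROI 003 (0.0534) or 005 (0.0719) and after thinning. C1qb, which was also at 1 count in the WT control PanCK+ segments, differed from Clec4f in where the change lay. Its IBA1+ levels were 80.5, 132 and 200 on the control diet and 68.3, 146 and 253 under DDC, while its PanCK+ levels were 3.50, 5.25 and 15.8 on the control diet and 18.9, 26.6 and 39.5 under DDC. Its difference (2.0, adjusted p 0.0431) was lost under 15 of 25 alternatives, among them without ROI 003 (0.419) or 005 (0.445), without the ROI block (0.223) and with total counts (0.211).

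Among hepatocyte genes, Ass1 (1.49), Fabp1 (1.22), Apoa1 (1.15) and Alb (1.07) had a higher ratio under DDC. Alb in IBA1+ segments was at 5530, 7340 and 10537 on the control diet and at 721, 1949 and 3524 under DDC, and Fabp1 at 638, 746 and 1003 against 10.5, 21.8 and 84.0. Levels were lower under DDC in PanCK+ segments too. There Alb was at 1833, 2772 and 6166 against 603, 1424 and 2301, and Fabp1 at 186, 262 and 431 against 10.6, 25.9 and 37.1. Without ROI 005 none of the 4 passed (adjusted p 0.447, 0.906, 0.92 and 1), and with total counts Alb (0.0886), Apoa1 (0.0618) and Fabp1 (0.195) did not. Fbln1, a matrix glycoprotein, was at 1.75, 5.25 and 11.8 in control and 19.4, 31.5 and 47.3 in DDC IBA1+ segments (difference −3.29, adjusted p 0.013). In PanCK+ segments it was at 5.25, 13.1 and 18.4 on the control diet and 2.10, 7.14 and 9.32 under DDC. Rab1a, a GTPase of the secretory pathway (2.67, 0.0039), and Acsl5, an acyl-CoA synthetase (2.55, 0.013), had ratios of −2.05 and −1.95 on the control diet and of 0.63 and 0.61 under DDC. In the WT control segments Rab1a and Acsl5 were at 1 count in PanCK+ and Fbln1 at 1 count in IBA1+. The control ratios of Fbln1, Rab1a and Acsl5 therefore rest in part on this floor. Without ROI 005 these 3 differences did not pass either (Fbln1 and Acsl5 at an adjusted p of 1, Rab1a at 0.227).

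**Figure D5:**
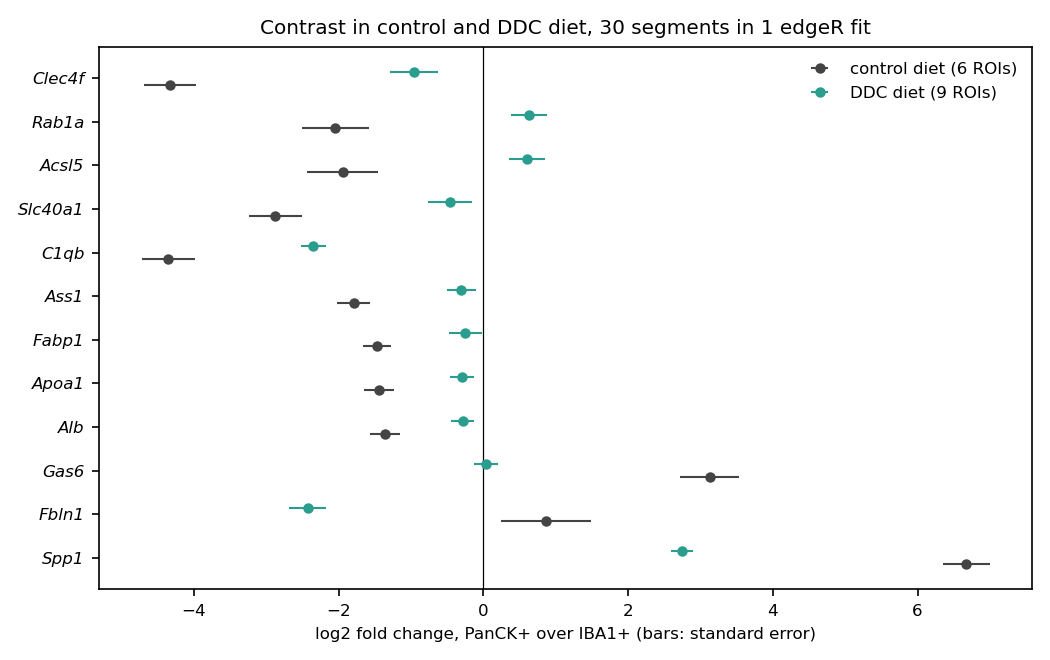
Fitted log2 ratios of PanCK+ over IBA1+ segments (points) with their standard errors (bars) for 12 genes whose ratio differed between the diets, from the 6 control-diet ROIs in black and the 9 DDC ROIs in green. The DDC point of Spp1 (2.74), Gas6 (0.04) and Clec4f (−0.96) sits nearer to 0 than the control-diet point, and Fbln1 lies at 0.86 on the control diet and −2.43 under DDC.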

How the data were processed

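GeoMx Digital Spatial Profiling with the mouse Whole Transcriptome Atlas probes was run by the authors on fixed liver sections. ROIs were placed by morphology around the ductular reaction or in the parenchyma and divided by PanCK and IBA1 staining. Libraries were made with 18 cycles of amplification and sequenced on a NextSeq2000. The deposited values are expected counts per gene and segment, made by the authors with a custom R workflow that filtered segments and genes on the limit of quantification and kept targets seen in over 10% of ROIs. The deposited signal values are those counts after the authors' Q3 normalization. The submitters' processing notes name bcl2fastq and mm10, while the sources used here do not give the aligner. A deposited value below 1 does not occur, and whether a count of 1 is a raised 0 is not stated. Of 10547 genes, 10512 matched a RefSeq symbol, and 3 genes with values that are not whole were rounded. The negative probe, at 1.00 to 4.77 counts per segment, was left out of library sizes and tests.

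The 12 segments were fitted in R 4.3.3 by the quasi-likelihood method of edgeR 4.0.16, with the ROI as a block, upper-quartile factors at the 75th percentile and no further filter. Genes with a Benjamini-Hochberg adjusted p under 0.05 are called. This fit left 5 residual degrees of freedom, or 4 with a ratio per genotype, and the fit of 30 segments that tested the diets left 11. All tests are two-sided, and a standard error is the log2 ratio over the square root of the F value. Folds are 2 to the power of the fitted log2 ratio. Some gene lists share members, so their counts of calls are not separate. Alternatives were TMM factors, total counts, DESeq2 1.42.0, limma 3.58.1 on log2(Q3-normalized count + 1) or + 0.5, a filter on low counts, no block, counts of 1 set to 0, thinning to the smallest total, an unadjusted p under 0.05 with a log2 ratio over 1 in size, and leaving out each ROI. Simulated data with known folds were run through the 12-segment fit and the diet fit, with a limit to pass set for the 12-segment fit alone. The contrasts within and between genotypes were not run on simulated data. Deviations of the 2 segments of a ROI from the means of their genotype and class were correlated over 749 genes. The value was 0.035 in WT and 0.102 to 0.335 in the Trail Δmye ROIs. With only 2 WT ROIs the deviations of 1 mirror those of the other, so both must give the same value. The pairing rests on the shared ROI in the labels.

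The genes named were the 12 highest and 12 lowest called genes with all 6 ROIs on the same side, the members of each list with the lowest p, further list members where a count needed them, the genes with the strongest differences between diets, the named members called in that difference, and the chemoattractants and markers of the study. For the 12 highest and 12 lowest, a lack of overlap between the segment classes is favoured by this choice. The pairs, the gene lists and the tests were chosen with earlier results of these data known. Some genes are not reported here.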

Additional observations from a re-analysis of the deposited data

Results flagged for a closer look

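In 12 of 140 named genes checked, the log2 ratio of PanCK+ over IBA1+ Q3-normalized counts of 1 ROI lay far from the other 5 by Dixon's criterion. Chance flags about 1 in 20 such groups. ROI 029 stood apart in 5 of them, with a ratio of 3.38 for Fgfr3, 3.85 for Itga3, −2.78 for Cyp1a2, −2.49 for Tnf and 3 for Cd209a (5 counts against 1). ROI 003 stood apart for Cd5l (−4.25), Ctsb (−3.39) and Cldn3 (3.58, 12 counts against 1), and ROI 027 for Stab1 (−3.32, 1 count against 20) and Notch2 (−2, 1 count against 8). The others were Laptm5 in ROI 028 (−1.94, the least negative of its 6) and Cxcl12 in ROI 026 (−3.52, 1 count against 23). Of these 12 genes, Fgfr3, Cd5l, Laptm5, Itga3 and Ctsb were called in the control-diet pairs. In most of them 1 of the paired values is a count of 1, and the part of this floor was not tested.

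For 12 named genes the ratio differed between the diets by the test of the difference itself. It was higher under DDC by 3.37 for Clec4f, 2.67 for Rab1a, 2.55 for Acsl5, 2.41 for Slc40a1, 2.0 for C1qb, 1.49 for Ass1, 1.22 for Fabp1, 1.15 for Apoa1 and 1.07 for Alb on the log2 scale, and lower by −3.09 for Gas6, −3.29 for Fbln1 and −3.93 for Spp1. Only Spp1 and Gas6 of these 12 were called under every alternative that gave a value. The WT control segments were at 1 count in IBA1+ for Spp1, Gas6 and Fbln1. They were at 1 count in PanCK+ for Clec4f, C1qb, Rab1a and Acsl5. The part of this floor in these differences was not tested.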

How the results depend on the processing

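Of the 87 named genes called in the control-diet pairs, 49 were called under every alternative that gave a value and 86 kept their direction. Igha was the exception, which ran from −1.76 to 0.21 over the fits without 1 ROI. Of the 53 named genes not called, 38 were called under none. The numbers of called genes over all 6 pairs, in WT and in Trail Δmye pairs, between genotypes and between diets were 542, 31, 397, 0 and 47. Without the ROI as a block they were 553, 40, 440, 0 and 10, so that this block changed the count between diets. With DESeq2 the numbers were 306, 103, 183, 0 and 130. With limma they were 606, 132, 393, 0 and 283 at a pseudocount of 1, and 601, 127, 388, 0 and 267 at 0.5. With counts of 1 set to 0 they were 325, 67, 256, 0 and 93. After thinning to the smallest total they were 184, 1, 3, 0 and 39. At an unadjusted p under 0.05 with a log2 ratio over 1 they were 910, 421, 1042, 101 and 459. With the filter on low counts they were 313, 142, 285, 0 (625 genes tested) and 65, with TMM factors 493, 44, 382, 0 and 68, and with total counts, a setting chosen after seeing the data, 546, 60, 424, 0 and 29. The fit of 30 segments called 320 genes in the control-diet pairs. Without 1 ROI at a time the numbers ran from 346 to 547, 1 to 26, 80 to 459, 0 to 0 and 5 to 97. In the WT segments 57.7 to 70.3% of genes were at 1 count. The causes of these shifts were not tested.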
